A study of Mus musculus with 6 samples.

Results

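A Dam-LmnA map of lamina contacts, from mouse embryonic fibroblasts (MEFs) that had received RNAi against lamin B1 (LmnB1), is described here. Its members are the lamina-associated domains (LADs) that the authors called on this map, taken from their list on chromosomes 1 to 19. These are 1644 of the 1764 LADs of the map, and of 5339 LADs in the 3 lists of the series. The map joins 2 of the 6 libraries, Dam-LmnA and Dam only, both from LmnB1 RNAi cells. The other 4 libraries form a LmnA RNAi map and a LmnC RNAi map, each a Dam-LmnB1 library over a Dam-only library, and they serve here only to set the same intervals beside. All cells were wild type MEFs of the C57BL/6 strain, given lentiviral shRNA, selected with puromycin at 2 µg/mL and then transduced with a lentiviral Dam cassette. For the shRNA the protocol text mentions only LmnA and LmnC as targets, and for the fusion only Dam-Lamin B1, so the LmnB1 target and the Dam-LmnA fusion are known from the description and title labels. Each group is 1 library, so no p-value is given. Lamin RNA and protein were not measured, and the depletion of lamin B1 could not be checked. The RNAi target and the fusion both set this map apart, and their parts in any difference from the other maps cannot be told apart.

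Lamins are intermediate filament proteins that form a meshwork under the inner nuclear membrane. A-type lamins (lamin A and lamin C, splice products of Lmna) also occur in the nuclear interior, while lamin B1 stays farnesylated and attached to the membrane. LADs are long stretches of chromatin that lie against this meshwork. They are known to be poor in genes, low in transcription, late in replication and rich in repressive histone marks. In DamID the fused bacterial adenine methyltransferase marks GATC sites near the lamina over many hours, so a fragment's value reflects how often, across many cells, it came close to the fusion protein.

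Each deposited value is the log2 ratio of fusion over Dam-only reads on 1 GATC fragment. The map held 5972542 such fragments on these chromosomes. The values step as if 1e-05 had been added to both read counts, and they carry a constant of -0.15. A fragment at this constant had equal reads in both libraries, 0 included. A fragment with 0 reads in 1 library has a size above 12 and weighs heavily in a mean, although its median was 1 read. The main results below are therefore given over all fragments, weighted by length, and again without these fragments, which is called the both-library reading. It keeps the fragments at the constant, also those with 0 reads in both libraries. Values without a stated reading are over all fragments. Errors of single regions and of depth ranges are standard errors over fragments of 1 pair of libraries. They treat fragments as independent, so they leave out variation that neighbouring fragments share, and they do not cover the spread between cultures. Total reads are unknown, because ratios were deposited. The gene tables used here are of another genome build than the mm9 coordinates of the map, so genes inside the LADs are not given.

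The LADs covered 58.6% of the fragment length, 1392 Mb. Inside them, 19.2% of fragments were read only in the Dam-LmnA library and 5.33% only in the Dam-only library. Outside them, 6.06% were fusion-only and 17.8% Dam-only. The reads behind these classes were more lopsided than the fragments, with 1652294 fusion-only against 317611 Dam-only reads inside LADs, and 223761 against 1458630 outside. Fragments read in both libraries went the same way, with 34.9% of fragments inside LADs above the constant and 9.93% below it, against 10.9% and 36.7% outside. Fragments at the constant were about as common inside (30.6%) as outside (28.5%), and were short. Their median length was 88 bp inside LADs, against 556 bp for fragments there read in both libraries and above the constant. Since the LADs were called on this signal, the contrast between inside and outside is built in and is given as a description.

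In windows of 20 kb the map formed 2 broad, overlapping populations. The 68504 bins wholly inside LADs had a median log2 ratio of 1.71, with 0.08 and 3.07 at the 10th and 90th percentiles. The 47983 bins outside had a median of -1.79, with -3.56 and -0.08 at those percentiles. In the both-library reading the medians were 0.68 and -0.94. Of the bins inside LADs 92.6% lay above the constant, where 58.7% of all 119679 bins did, and 11.1% of the bins outside. Bins outside LADs spread more widely (SD 1.36) than bins inside (SD 1.18), and did so in the both-library reading as well (0.64 against 0.52).

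**Figure D1:**
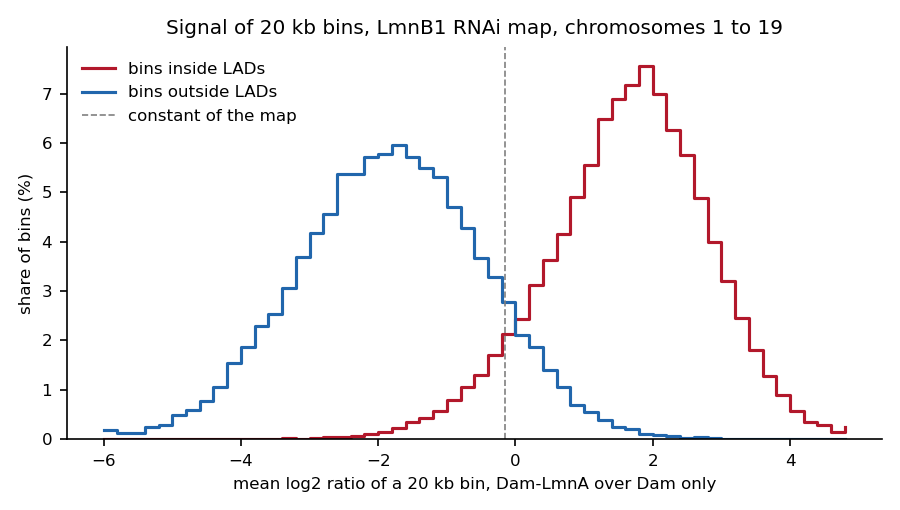
Share of 20 kb bins (vertical axis, %) by their mean log2 ratio of Dam-LmnA over Dam only (horizontal axis), for bins wholly inside LADs (red) and wholly outside (blue), with the constant of the map as a dashed line. The outermost steps also hold the few bins beyond the axis. The bins inside centre on 1.71 and those outside on -1.79, and the tails cross near the constant.

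LADs differed widely in strength. The LAD mean log2 ratio ran from -0.60 to 3.27 over the 1644 LADs, with a median of 1.39 and an SD of 0.72. The middle of the distribution was broad, from 0.71 at the lower to 1.87 at the upper quartile. In the both-library reading the range was -0.73 to 1.33, with a median of 0.46 and an SD of 0.36. This spread was larger than the precision of a single LAD. Means taken on odd-numbered and on even-numbered fragments of the same LADs differed as if each LAD carried a sampling SD of 0.14 (0.05 in the both-library reading), and the 2 sets of means had a Spearman correlation of 0.927 (0.969), over points that share both libraries.

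A small number of LADs had a mean no higher than that of equal reads. In 30 of the 1644 LADs (1.82%) the mean was at or below the constant, and in 133 (8.09%) it was so in the both-library reading. Of these 133, 84 were shorter than 300 kb, their median length was 224 kb, and 2 reached 1 Mb.

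More of the variance of 20 kb bins lay within LADs than between them. The SD of 20 kb bins inside a LAD had a median of 0.95 over LADs, and 0.39 in the both-library reading. Part of this is fragment sampling, for which odd-numbered and even-numbered fragments gave an SD of 0.67 per bin (0.21). Pooled over all bins, the SD within LADs was 1.02 (0.43). With sampling taken out through the covariance of the odd and even means, this pooled SD was 0.81 (0.37). The SD of LAD means given above, 0.72 (0.36), counts each LAD once and still holds sampling, so it is not a like measure. The share of the variance of 20 kb bins that lay between LADs was 26.4%, and 35.2% without sampling (33.9% and 38.7% in the both-library reading). With bins of 100 kb it was 44.8% (48.2%), over the 1041 LADs long enough for them, so the set of LADs changed with the bin size. At both bin sizes the larger part of the variance lay inside LADs.

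Single 20 kb bins at or below the level of equal reads were common in LADs of every length. Fragment sampling alone had an SD of 0.67 per bin, and its part in these low bins was not tested. A bin at or below the constant occurred in 57.1% of LADs under 300 kb and in 91.5% of LADs of at least 2 Mb, which hold many more bins. Per bin the order was the reverse, with 14.9% of the bins of LADs under 300 kb at or below the constant, 12.6% at 300 to 600 kb, 10.7% at 600 kb to 1 Mb, 6.80% at 1 to 2 Mb and 3.50% at 2 Mb or more. The both-library reading gave the same order, from 20.3% to 3.85%.

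Sustained dips deep inside LADs were rare. Stretches of at least 5 neighbouring 20 kb bins at or below the constant, in LADs of at least 1 Mb and at least 200 kb from their borders, numbered 13 and lay in 12 of 409 such LADs (2.93%). The lowest was on chromosome 10 from 63460001 to 63560000, with a log2 ratio of -1.26 ± 0.36 (SE over 237 fragments) inside a LAD whose mean was 1.95. It was -0.39 ± 0.13 in the both-library reading. A stretch of chromosome 14 from 103660001 to 103760000 had -1.12 ± 0.27. The third, at 54320001 to 54420000 of chromosome 4, had -1.08 ± 0.25 in a LAD whose own mean was -0.13. The longest, 240 kb on chromosome 14 from 19540001 to 19780000, had -0.89 and was picked for its length after the values were seen. The other maps carry constants of their own, -0.34 after LmnA RNAi and 0.21 after LmnC RNAi, so their levels are set beside those of this map with no comparison of size. Over the same 13 stretches the median was 0.31 in the LmnA RNAi map and -1.36 in the LmnC RNAi map, and -0.56 here, -0.18 and -0.82 there in the both-library reading. LADs of the LmnA RNAi map covered more than 50% of 12 of the 13 stretches, and those of the LmnC RNAi map 8. Over all 1644 LADs, LADs of those maps covered a mean of 94.2% and 85.9% of a LAD's length.

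Longer LADs were stronger, and their means spread less. The median LAD mean rose with length, from 0.91 in 520 LADs under 300 kb to 1.27 in 427 LADs of 300 to 600 kb, 1.47 in 288 of 600 kb to 1 Mb, 1.74 in 245 of 1 to 2 Mb and 1.96 in 164 of at least 2 Mb. In the both-library reading the medians were 0.21, 0.43, 0.52, 0.65 and 0.79. The Spearman correlation of LAD mean and LAD length was 0.457 over the 1644 LADs (0.504 in the both-library reading), and it was positive on each of the 19 chromosomes, from 0.308 to 0.591. These points share 1 pair of libraries and the LAD caller. Within the length classes the Spearman correlations were 0.09, 0.08, 0.03, 0.13 and 0.35 from the shortest to the longest. GATC fragments per kb did not move with length (median 2.52 in both the shortest and the longest class).

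The lower edge of the distribution moved more with length than the upper edge. Short LADs included strong ones, while no LAD of at least 2 Mb was below 0.99. At the 90th percentile, LADs under 300 kb had 1.87 and LADs of at least 2 Mb 2.23, while at the 10th percentile they had 0.03 and 1.42. The SD of LAD means fell from 0.70 under 300 kb to 0.52 at 1 to 2 Mb and 0.31 at 2 Mb or more, and to 0.20 in the 15 LADs of at least 5 Mb. With sampling taken out the SD was 0.67 under 300 kb and 0.31 at 2 Mb or more. The both-library reading had an SD of 0.35 in the shortest class and 0.16 in the longest.

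Averaging over a longer stretch narrows a mean by itself, so a window of the same size was taken from every LAD. From the shortest to the longest class, the central 100 kb had an SD over LADs of 0.71, 0.79, 0.87, 0.76 and 0.59 with sampling taken out, and of 0.37, 0.40, 0.42, 0.37 and 0.29 in the both-library reading. At an equal window the spread thus did not narrow steadily with length, and was widest at 600 kb to 1 Mb and lowest at 2 Mb or more. The rise in level was seen there too, with a median of 1.01 for the central 100 kb of LADs under 300 kb and 2.09 for those of at least 2 Mb (0.27 and 0.90). This window is equal in size but not in depth, since it lies further from the borders in longer LADs. Levels at equal depth are given below.

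**Figure D2:**
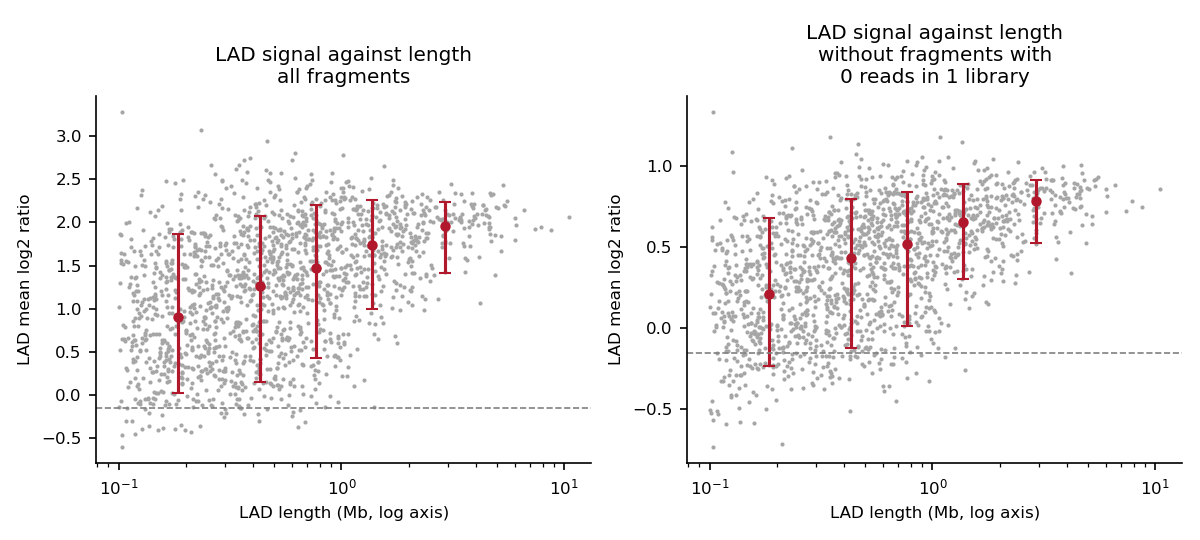
LAD mean log2 ratio (vertical axis) against LAD length (horizontal axis, Mb, log axis) for the 1644 LADs (grey points), over all fragments (left) and without fragments with 0 reads in 1 library (right). Red points are medians of the 5 length classes with bars from the 10th to the 90th percentile, and the dashed line is the constant of the map. The lower edge climbs from 0.03 to 1.42 between the shortest and the longest class in the left panel, and the upper edge from 1.87 to 2.23.

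Signal rose inward from the border of a LAD, and in LADs of at least 2 Mb this went on beyond the first 500 kb. In LADs of at least 2 Mb the mean log2 ratio was 1.43 ± 0.03 within 25 kb of the border, 1.50 ± 0.02 at 50 to 100 kb, 1.73 ± 0.02 at 200 to 300 kb, 1.95 ± 0.01 at 500 to 1000 kb and 2.09 ± 0.01 at 1000 to 2000 kb (SE over fragments). The both-library reading went from 0.34 to 0.84 over the same depths. All 164 LADs of this class reach each of these depths, but beyond 1000 kb the longer ones hold more of the fragments. In LADs of 600 kb to 1 Mb the rise levelled off, with 1.21 ± 0.02 within 25 kb, 1.48 ± 0.02 at 150 to 200 kb and 1.45 ± 0.01 at 300 to 500 kb. The both-library reading had 0.27, 0.50 and 0.53 there. LADs of 300 to 600 kb rose from 1.05 ± 0.02 within 25 kb to 1.33 ± 0.02 at 200 to 300 kb, and those under 300 kb from 0.87 ± 0.02 to 1.14 ± 0.03 at 100 to 150 kb. These last depths are reached by 263 of 427 and 220 of 520 LADs, so they rest on the longer LADs of each class.

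Short and long LADs also differed at equal depth. At 50 to 100 kb from the nearest border, LADs under 300 kb had a mean log2 ratio of 1.00 ± 0.02, those of 300 to 600 kb 1.16 ± 0.01, those of 600 kb to 1 Mb 1.33 ± 0.02, those of 1 to 2 Mb 1.52 ± 0.02 and those of at least 2 Mb 1.50 ± 0.02. The longest class thus lay 0.50 above the shortest at equal depth, and 0.24 above it in the both-library reading. The classes of 1 to 2 Mb and of at least 2 Mb had nearly the same level at this depth, also in the both-library reading (0.52 and 0.52). The errors are over fragments pooled across the LADs of a class. They leave out the spread between LADs and do not measure how far classes differ. Within the first 25 kb the level rose through all 5 classes, from 0.87 to 1.43.

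**Figure D3:**
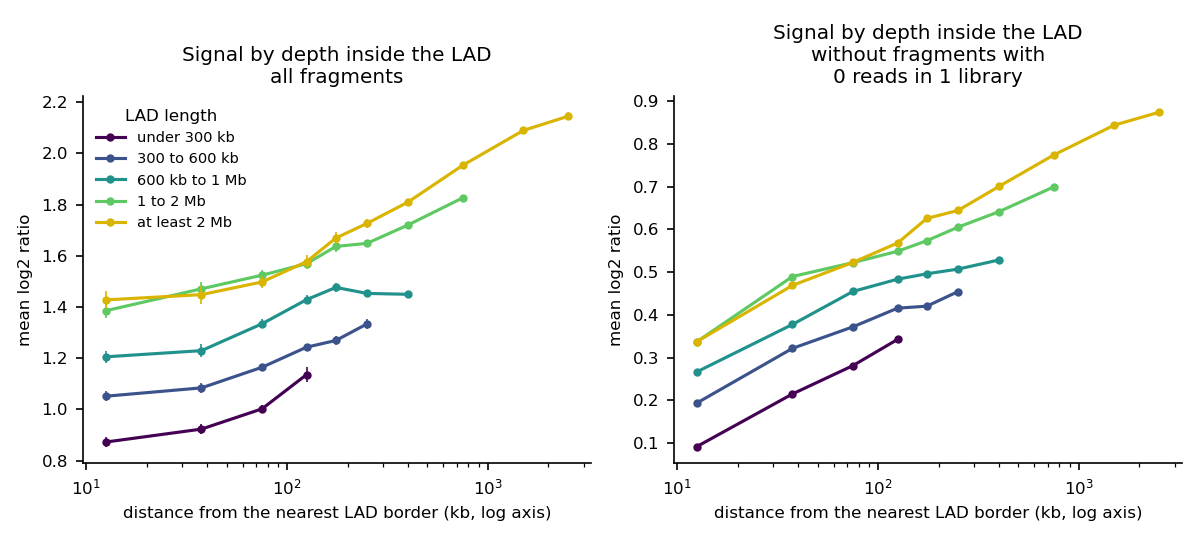
Mean log2 ratio (vertical axes, which do not start at 0) by distance from the nearest LAD border (horizontal axis, kb, log axis), 1 line per length class, over all fragments with SE bars (left) and without fragments with 0 reads in 1 library (right). Points stand at the middle of a distance range, and the open last range, beyond 2000 kb, is drawn at an arbitrary place. Each line ends higher than it starts, and at 50 to 100 kb the classes run from 1.00 to 1.52 in the left panel.

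Borders were steep. Over 3100 borders with fragments on both sides, the mean log2 ratio was 1.14 in the 100 kb inside and -1.62 in the 100 kb outside, a step of 2.76 (SD 1.02 over borders), and 1.17 (SD 0.52) in the both-library reading. Starts and ends of LADs did not differ by more than a small part of this spread, with steps of 2.74 and 2.78. The step was 2.62 at LADs under 300 kb and 2.96 at those of at least 2 Mb. The borders of 1 LAD were only loosely alike, with a Spearman correlation of 0.144 between the steps at its start and end over 1488 LADs and a median difference of 0.90.

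The shape of the border depended on which fragments were read. LADs of at least 400 kb next to inter-LADs of at least 200 kb were used. At LAD starts (570 borders) the last 10 kb outside had -1.64 and the first 10 kb inside 1.25. Further in, the mean was 1.12 at 10 to 20 kb, 1.03 at 20 to 30 kb and 1.56 at 190 to 200 kb. At LAD ends (547 borders) it was -1.41 outside, 1.19 in the first 10 kb inside and 1.35 at 190 to 200 kb. In the both-library reading the outside, first and last windows had -0.61, 0.15 and 0.51 at starts. At ends they had -0.60, 0.15 and 0.47. This reading thus changed more gradually across the border. The border was placed on this signal by the authors' call.

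Intervals between LADs (inter-LADs) were low. There were 1625 intervals between neighbouring LADs, of which 72 were covered by fragments over less than 50% of their length and were left out. The other 1553 had a median log2 ratio of -1.69 (SD 0.79), and 48 of them lay above the constant (75 in the both-library reading). The SD over inter-LADs was 0.88 under 50 kb, 1.00 at 50 to 100 kb (210 inter-LADs, median -1.38) and 0.39 at 2 Mb or more (133 inter-LADs), and 0.53, 0.55 and 0.16 in the both-library reading. No window of equal size was taken here, and longer intervals average over more sequence. The 136 inter-LADs under 50 kb had a median of -2.17, which was -0.95 in the both-library reading.

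A few stretches outside the LADs carried a signal above that of the median LAD. Of the bins outside LADs 0.857% lay above the median LAD mean, where 61.1% of the bins inside and 35.6% of all bins did. Stretches of at least 3 neighbouring bins of that height numbered 19 and made up 1.30 Mb, the longest 100 kb, where the shortest LAD of the map had 100.3 kb. The highest was on chromosome 2 from 173960001 to 174040000, with 2.67 ± 0.38 (219 fragments) here, 3.49 in the LmnA RNAi map and 2.30 in the LmnC RNAi map, and 100% of it was in LADs of both of those maps. The second, on chromosome 17 from 10960001 to 11020000, had 2.53 ± 0.40. Stretches on chromosome 2 from 148580001 to 148660000 and from 22400001 to 22460000 had 2.49 ± 0.33 and 2.47 ± 0.35, and the fifth, on chromosome 19 from 11900001 to 11980000, had 2.37 ± 0.34. Without fragments read in 1 library these 5 had 0.67, 1.15, 1.20, 1.06 and 0.74, all above the median LAD mean of 0.46, while 3 of the 19 were below it. LADs of the LmnA RNAi map held most of 16 of the 19 stretches, and those of the LmnC RNAi map most of 14. Of all 47983 bins outside the LADs of this map, 22.6% and 7.36% lay mostly in LADs of those maps.

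The longest LADs were strong but not the strongest. The longest of all lay on chromosome 14 from 106855251 to 117294296, with a log2 ratio of 2.06 ± 0.03 over 25220 fragments (0.86 ± 0.01 in the both-library reading), which ranked 242nd of 1644. The second longest, on the same chromosome from 80046368 to 88786971, had 1.91 ± 0.04. The third, on chromosome 3 from 41442712 to 49285644, had 1.94 ± 0.04. In the Dam-LmnB1 maps these 3 intervals had 1.96, 2.23 and 2.12 after LmnA RNAi and 1.54, 1.53 and 1.40 after LmnC RNAi.

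The 5 strongest LADs with at least 300 fragments ran from 233 to 1015 kb. The first, 233 kb on chromosome 10 from 88292477 to 88525614, had 3.07 ± 0.24 over 613 fragments, with 28.2% of them fusion-only and 3.26% Dam-only. It had 1.11 ± 0.08 in the both-library reading, with 3.51 after LmnA RNAi and 2.72 after LmnC RNAi in the Dam-LmnB1 maps. The second, 465 kb on chromosome 8 from 131273110 to 131738534, was the last LAD listed on its chromosome and had 2.95 ± 0.16 (1.13 ± 0.06). The next pair lay near each other on chromosome 2, from 175374803 to 175992526 (2.80 ± 0.17) and from 176383582 to 177398792 (2.78 ± 0.11), each between stretches of 50 kb without a fragment. Their ranks in the both-library reading were 246 for the first of the pair (0.80 ± 0.04) and 70 for the second (0.92 ± 0.03). The fifth, on chromosome 10 from 78598591 to 78988890, had 2.74 ± 0.17 (1.02 ± 0.05). All 5 were covered by LADs of both Dam-LmnB1 maps over at least 98.4% of their length. Such cover was common, with medians over all 1644 LADs of 99.8% (LmnA RNAi) and 97.5% (LmnC RNAi).

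Strength at short length was also seen below 300 kb. The strongest of all LADs, 103 kb on chromosome 13 from 65236758 to 65340251, had 3.27 ± 0.36 over 287 fragments and led in the both-library reading too, at 1.33 ± 0.12. Its neighbours on both sides were LADs at 58.0 and 73.3 kb. The next were the chromosome 10 LAD at 88292477, above, and a LAD of 259 kb on the same chromosome from 78254194 to 78513240, with 2.66 ± 0.21 (0.98 ± 0.06).

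The 5 weakest LADs with at least 300 fragments ran from 118 to 211 kb. The weakest with at least 300 fragments, 118 kb on chromosome 14 from 106327202 to 106445371, had -0.44 ± 0.28 (-0.60 ± 0.11 in the both-library reading) and lay 410 kb before the longest LAD of the map. It was in no LAD of either Dam-LmnB1 map. A LAD of 211 kb on chromosome 1 from 51592451 to 51803820 had -0.43 ± 0.18 (-0.71 ± 0.06), with 0.12 after LmnA RNAi and -1.41 after LmnC RNAi. The others were on chromosome 9 from 95097201 to 95295125 (-0.40 ± 0.20), chromosome 10 from 25247756 to 25398156 (-0.40 ± 0.23) and chromosome 4 from 43748085 to 43927942 (-0.39 ± 0.21). The chromosome 9 LAD had 1.45 in the LmnA RNAi map and was in LADs of both maps over 100% of its length. The chromosome 10 LAD had 1.25 in the LmnA RNAi map, with 91.8% of its length in LADs there. LADs of the LmnC RNAi map covered the chromosome 9 LAD whole, the chromosome 4 LAD over 74.5% of its length, and no part of the other 3.

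Among LADs of at least 2 Mb the weakest still had clear signal. The LAD on chromosome 18 from 47544103 to 49897193 had 0.99 ± 0.06 (0.28 ± 0.02 in the both-library reading), against -0.28 in the LmnC RNAi map, which nevertheless had it in LADs over 99.7% of its length. A LAD at 5421524 to 7485905 of chromosome 3 had 1.04 ± 0.07, and another at 16164391 to 20339971 of chromosome 5 had 1.07 ± 0.05. Both were lopsided, with 0.63 before and 1.45 after the midpoint of the first and 0.53 and 1.61 in the second.

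Long LADs ranged from even to patchy. The most uneven LAD of at least 1 Mb, on chromosome 14 from 19167158 to 20238926, had an SD of 1.58 over its 20 kb bins (0.62 in the both-library reading) around a mean of 0.71, with -0.02 before its midpoint and 1.45 after it, and ended at a stretch of 50 kb without a fragment. It held the 240 kb dip above. The second, on chromosome 13 from 12401656 to 13471603, had an SD of 1.53 (0.70) around a mean of 1.31, and values of 0.50 and 2.12 on the 2 sides. The most even, on chromosome 13 from 22145052 to 23366068, had an SD of 0.69 (0.25) around a mean of 2.09 ± 0.09, with 2.10 and 2.09 on the 2 sides. Another even LAD, on chromosome 4 from 127057127 to 128269852, also had an SD of 0.69 (0.27), at a lower mean of 1.48 ± 0.08. These LADs were chosen for their SD, so the values are a description.

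Some long LADs differed from end to end. In the 409 LADs of at least 1 Mb, the means before and after the midpoint differed by a median of 0.35 (0.15 in the both-library reading), and by more than 1 in 34, or in 0 in the both-library reading, where all values are smaller. Neither side was favoured, with the side nearer the chromosome start higher in 206 of 409. The largest difference, on chromosome 6 from 140732291 to 142286183, was 0.58 against 2.35 and was picked after the values were seen.

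**Figure D4:**
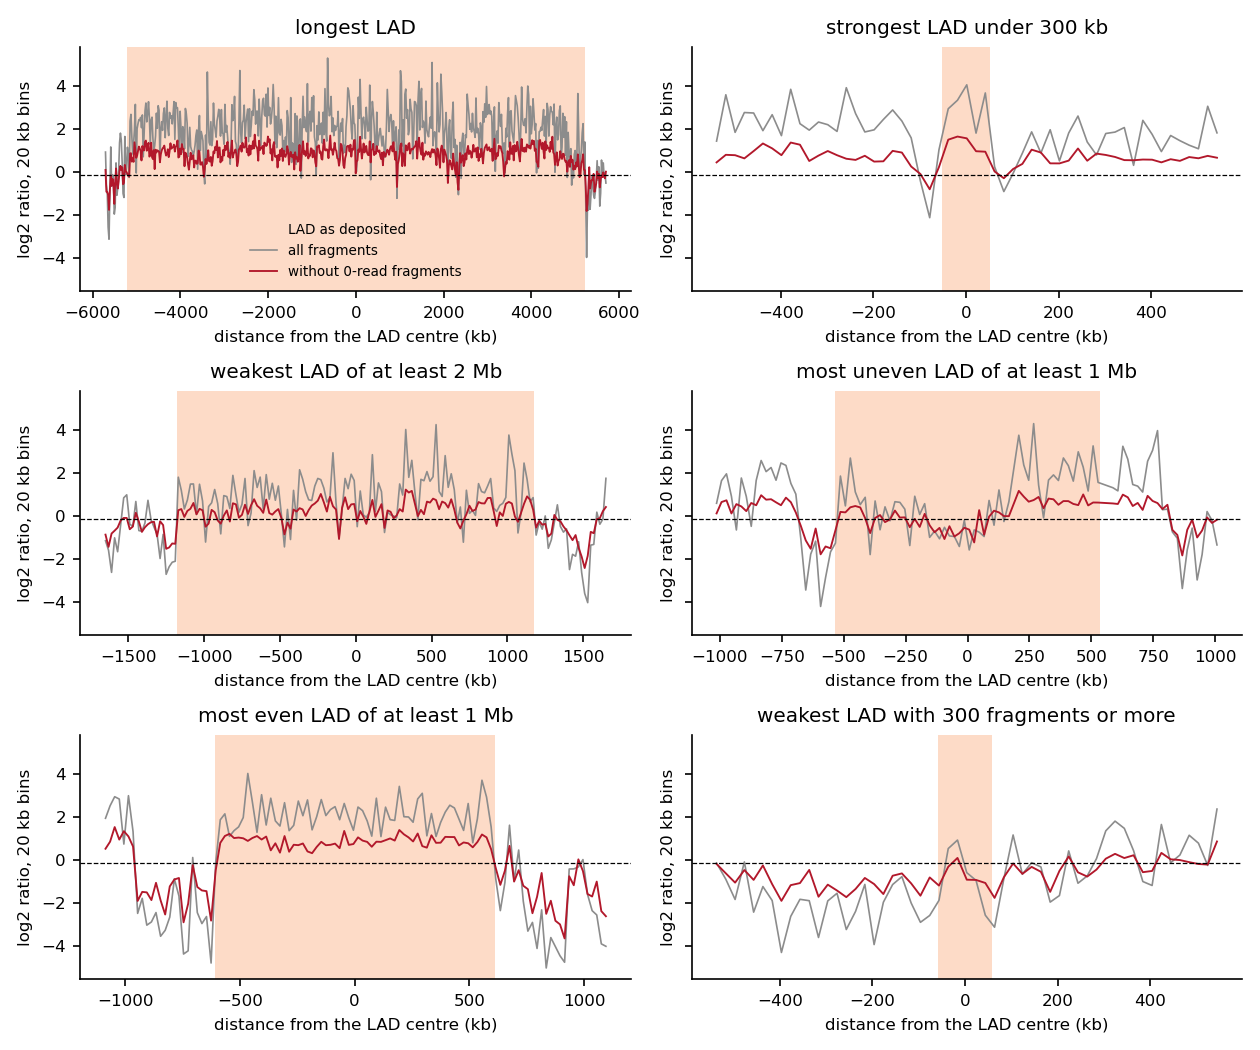
Mean log2 ratio of 20 kb bins (vertical axis) by distance from the LAD centre (horizontal axis, kb) for 6 LADs named in the text with 500 kb on each side, over all fragments (grey) and without fragments with 0 reads in 1 library (red). The shaded span is the deposited LAD and the dashed line the constant. The most uneven LAD changes level from -0.02 to 1.45 across its midpoint, while the most even one stays around 2.09.

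LADs were then set apart as the weak and the strong 10% by their mean, 164 each. The weak LADs ran from -0.60 to 0.24 and the strong ones from 2.16 to 3.27. There was no break at either end, since the nearest LADs beyond these limits had 0.24 and 2.15. The both-library reading shared 134 of the 164 weak LADs (81.7%) and 109 of the strong (66.5%). Strong LADs were longer, with a median of 926 kb against 285 kb for the weak and 495 kb for all. Of the weak LADs 88 were shorter than 300 kb and 5 reached 1 Mb, against 24 and 76 of the strong. None of the weak LADs reached 2 Mb, where 32 of the strong did. Both sets were found on all 19 chromosomes.

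Over all lengths, strong LADs lay closer to other LADs and next to stronger ones than weak LADs did. The nearest neighbouring LAD was at a median of 95.4 kb for the strong, 203 kb for the weak and 120 kb for all. These distances also take in the 72 inter-LADs left out above for low fragment cover, and their part was not tested. With weak and strong LADs picked within a length class this order held in the 4 classes under 2 Mb and was turned at 2 Mb or more, where the medians were 151 kb for 16 strong and 105 kb for 16 weak LADs. The mean of the neighbouring LADs had a median of 1.55 for the strong and 1.12 for the weak, against 1.31 for all. Over all LADs the Spearman correlation of a LAD's mean with that of its neighbours was 0.258. Position along the whole chromosome had almost no rank correlation with strength. Spearman's value was -0.02 for the distance from the chromosome start, where the centromere of mouse chromosomes lies, and 0.03 from the end. A difference confined to the ends would not show in these values. At the 10th percentile, strong LADs lay 15.6 Mb from the start and 6.13 Mb from the end, and weak LADs 23.8 and 14.1 Mb. All LADs had 14.2 and 11.6 Mb. Sets picked in the both-library reading had 28.0 and 11.1 Mb (strong) and 21.6 and 14.3 Mb (weak).

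The density of GATC sites moved with strength over all fragments. The strong LADs had a median of 2.70 fragments per kb, the weak 2.45 and all 2.52, and the Spearman correlation of LAD mean and density was 0.333. In the both-library reading the Spearman correlation was 0.208, and the strong LADs picked there had 2.54. In 20 kb bins inside LADs the Spearman correlation was 0.287 over all fragments and 0.04 in the both-library reading. The part of GATC density in the order of the strong LADs was not tested.

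Fragments not used for the choice gave nearly the same levels. When the weak and strong sets were picked on odd-numbered fragments, their even-numbered fragments had medians of 0.06 and 2.27, close to the 0.05 and 2.34 on which they were picked. All 164 weak LADs were then below the median LAD on even fragments, and 162 of the 164 strong ones above it. Both sets of fragments come from the same libraries and alternate along the same LADs, which were called on both. These counts thus speak to counting error only.

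The Dam-LmnB1 maps, made from other libraries, placed these LADs in nearly the same order. Over the 1644 intervals the LAD mean of this map had a Spearman correlation of 0.904 with the LmnC RNAi map and 0.863 with the LmnA RNAi map (0.916 and 0.880 in the both-library reading). The Dam-LmnB1 maps had 0.901 with each other over these intervals (0.906). The points share the GATC fragments and the mm9 sequence. All 164 weak LADs were below the median of these LADs in both Dam-LmnB1 maps, and 163 of the 164 strong ones above it in each.

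**Figure D5:**
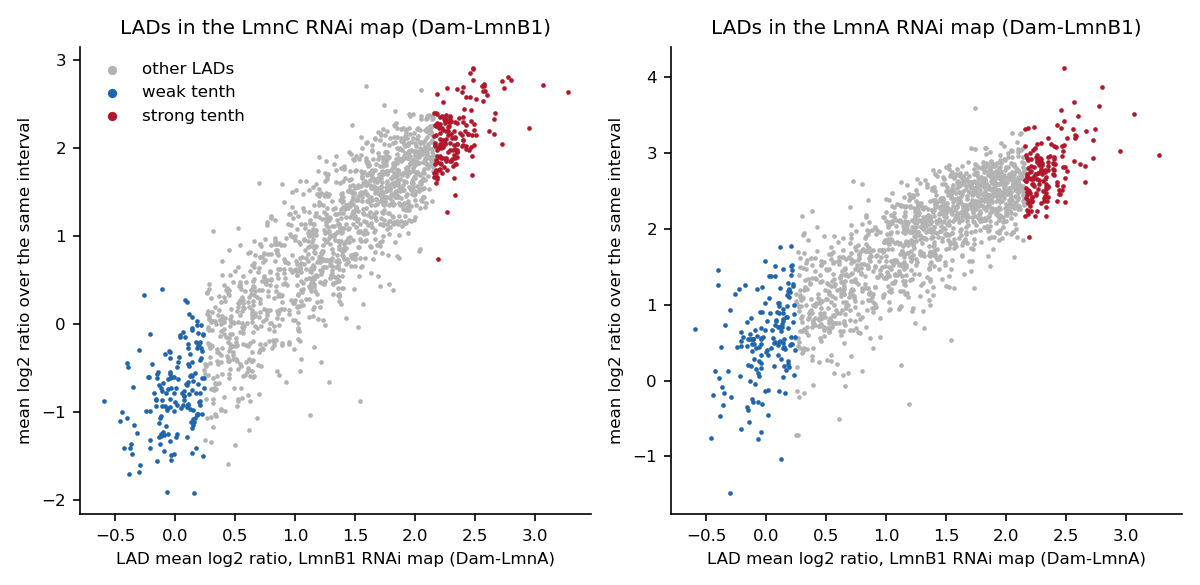
Mean log2 ratio over the 1644 LAD intervals in the LmnC RNAi map (left) and the LmnA RNAi map (right), both made with Dam-LmnB1 (vertical axes), against the LAD mean in the LmnB1 RNAi map made with Dam-LmnA (horizontal axes), 1 point per LAD. The weak (blue) and strong (red) 164 LADs were chosen on the horizontal axis, and they also take the low and high ends of both vertical axes, with medians of -0.78 and 2.14 on the left and 0.55 and 2.75 on the right.

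Weak LADs were the ones least often shared as LADs. LADs of the LmnC RNAi map covered a median of 42.0% of a weak LAD and 99.8% of a strong one, and had no overlap with 69 of the 164 weak LADs (42.1%), with none of the strong, and with 120 of all 1644 (7.30%). LADs of the LmnA RNAi map covered a median of 94.0% of a weak LAD and lacked 24 of them (14.6%), against 41 of all 1644 (2.49%). In 16 cases a weak LAD had no counterpart in either map, out of 22 such LADs in all.

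The orders were least alike among the longest LADs. The Spearman correlation with the LmnC RNAi map was 0.862 under 300 kb, 0.912 at 600 kb to 1 Mb and 0.670 at 2 Mb or more, and with the LmnA RNAi map 0.810, 0.886 and 0.342. The spread of the means is also smallest in that class, at 0.31. The rise with length likewise ended earlier in the LmnA RNAi map, where the medians over these same intervals were 1.43, 1.97, 2.22, 2.41 and 2.36 from the shortest to the longest class (0.46, 0.79, 0.93, 1.04 and 1.01 in the both-library reading). In the LmnC RNAi map they were 0.39, 0.94, 1.35, 1.58 and 1.72 (0.09, 0.39, 0.61, 0.74 and 0.83), so there as in this map the longest class was the highest. The intervals are the LADs of this map, and the part of that choice in these orders was not tested.

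Chromosomes differed little in the strength of their LADs. The median LAD mean ran from 1.10 on chromosome 15 (66 LADs) to 1.61 on chromosome 7 (101 LADs), and in the both-library reading from 0.32 on chromosome 15 to 0.58 on chromosome 2. Differences between chromosomes held 1.89% of the variance of LAD means (2.02%), so nearly all of the spread lay among LADs of the same chromosome. Chromosome 11 had the lowest share (46.4%) in LADs, with a median LAD mean of 1.16, and chromosome 14 the highest (65.1%) with 1.40. The sequence outside LADs was lowest on chromosome 7, at -1.98, and highest on chromosome 14, at -1.60. Chromosome 11 was nearly as low outside as chromosome 7, at -1.97.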

How the data were processed

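Reads were aligned with Bowtie to mm9, per the submitters' processing notes. How reads were filtered, how ratios were formed and which caller made the LADs is not given in the sources used here. Deposited log2 values (1 per GATC fragment) from the authors join a fusion and a Dam-only library, and whole reads recovered from fragments with 0 reads in 1 library were within 0.02 of a whole number in 100% of values up to 100 reads. LAD starts and ends are the authors' deposited intervals (unit: bp), printed 1-based. Fragments were assigned by their middle, weighted by length, and averaged over LADs and over 20 kb bins with at least 50% cover. Length classes, the 10% sets and the LADs named (longest, strongest, weakest, most and least even, lowest dips, highest stretches outside) follow written rules, with 1 LAD and 1 dip added after their values were seen. The members and rules were chosen with earlier results of these data known. With 1 library per group no test was made. Gene lists were not used, since no annotation of the mm9 build was at hand. Calculations used Python 3.11.15, numpy 2.4.6, pandas 2.3.3 and scipy 1.17.1, and were tested on simulated data.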

Additional observations from a re-analysis of the deposited data

How the results depend on the processing

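The following values replace those given above when 1 choice is changed, in the order median LAD mean, SD between LADs, SD within LADs, share of variance between LADs, the Spearman correlation with length, excess of long over short LADs at equal depth, border step, LADs at or below the constant, and the Spearman correlation with the LmnA RNAi and LmnC RNAi maps. As given above they were 1.39, 0.72, 0.95, 26.4%, 0.457, 0.50, 2.76, 30, 0.863 and 0.904. Leaving out fragments with 0 reads in 1 library gave 0.46, 0.36, 0.39, 33.9%, 0.504, 0.24, 1.17, 133, 0.880 and 0.916. Adding 1 read for those fragments gave 0.51, 0.37, 0.38, 34.5%, 0.499, 0.25, 1.24, 116, 0.875 and 0.915. Equal weight for each fragment gave 2.48, 1.03, 1.58, 20.8%, 0.394, 0.68, 4.81, 2, 0.793 and 0.869. Leaving out fragments at the constant gave 1.56, 0.80, 1.06, 26.2%, 0.453, 0.54, 3.06, 30, 0.877 and 0.907. Bins of 10 kb gave an SD within LADs of 1.23 and a share of 18.2%, and bins of 50 kb 0.69 and 38.0%. Without 50 kb at both ends, the first 5 values were 1.44, 0.76, 0.95, 24.4% and 0.400, with Spearman correlations of 0.829 and 0.881. With LADs of at least 200 kb they were 1.49, 0.69, 0.97, 25.1% and 0.422, with 0.856 and 0.902. The excess of long LADs was 0.54 within 50 kb of the border, and 0.33 against LADs of 300 to 600 kb. Borders of LADs of at least 400 kb next to inter-LADs of at least 200 kb had a step of 2.78. No value changed sign. The cause was not tested. Total reads are unknown, so depth limits cannot be set. No paired analysis was possible because each group holds 1 library. The picks on odd-numbered fragments, the covariance of odd and even means and the central 100 kb were added after seeing the data.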
